A study of Mus musculus with 3 samples.

Results

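A set of 40 genes of glucose breakdown and of the response to low oxygen were followed in embryonic mouse hearts. They comprise the glucose transporters, the glycolytic enzymes with their isoforms, the lactate enzymes and carriers, the gate of pyruvate dehydrogenase, the oxygen sensors and 5 targets of the hypoxia-inducible factors. The members were taken by gene name from the scanner files, which gave 75 probes for 40 genes among 41174 gene probes and 27674 gene names. The list was put together with results of these arrays known, Pfkl being placed in it because it was among the probes with the largest falls, so the values below describe the members and are not tests of them. Each of 3 Agilent 2-colour arrays compared a pool of RNA from 2 hearts labelled Lrrc10-/- (Cy5) with a pool from 2 hearts of wild-type littermates, Lrrc10+/+ (Cy3), all on the C57BL/6 background at embryonic day 15.5. Parents were Lrrc10+/- on both sides, the deletion is carried in the germline, and no drug or other treatment was given. The dyes were not exchanged, so genotype and dye cannot be told apart, and the wild-type labels also hold an adult age beside the embryonic one. The number of arrays limits the precision.

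Glycolysis splits glucose into pyruvate, and phosphofructokinase 1 makes its committed step. The enzyme is a tetramer built from a liver (Pfkl), a muscle (Pfkm) and a platelet (Pfkp) subunit, and the fetal heart, which lives at low oxygen, relies on glucose and lactate more than the adult heart does. Under low oxygen the prolyl hydroxylases Egln1 and Egln3 lose activity, Hif1a and Epas1 are spared from breakdown, and the factors bind short elements near many glycolytic genes and near Vegfa, Bnip3, Ddit4, Adm and Ankrd37. Many members are therefore both enzymes of glycolysis and textbook hypoxia targets. The comparison of the enzymes with the other targets thus cannot separate these roles, and it is given below as a description.

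Lrrc10 itself was read first, because it checks the labels. The arrays of replicates 1, 2 and 3 gave log2 ratios of Cy5 over Cy3 of 3.99, 4.78 and 4.45 (4.41 ± 0.40 as mean and SD, n = 3; adjusted p = 0.000387 by limma with Benjamini-Hochberg), so the transcript was higher in the channel labelled Lrrc10-/-. Its background-subtracted signals were 3833, 11219 and 9480 in Cy5. In Cy3, the channel labelled wild type, they were 146, 303 and 125. The paper describes strong expression of Lrrc10 in developing and adult hearts. Whether the probe lies within the deleted part is not given in the sources used here, and whether the labels are exchanged was not tested. The labels are therefore used as names of channels: "higher" and "lower" below describe Cy5 relative to Cy3, and they would change places if the labels were exchanged. The Lrrc10 difference did not pass the threshold with the deposited processed signals (log2 ratio 5.21, adjusted p = 0.270) or after scaling between arrays (4.62, adjusted p = 0.424).

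The isoforms of phosphofructokinase 1 were read by separate probes of 60 bases, and their first 30 bases, written 5′ to 3′ from the array files, are shown because the contrast between the isoforms rests on them. No stretch longer than 5 bases is shared between any of these 3 full probes. The Pfkl probe (A_51_P310896) lies at chr10:77450926-77450985 and the Pfkm probe (A_51_P117995) at chr15:97962713-97962772 of mm9. The Pfkp probe (A_51_P378856) spans chr13:6581718-6583872, a stretch longer than the probe itself.
Pfkl: ccgcaccttgagcatagacaagggtttctg
Pfkm: acaggctgggtctctctagtgctacggcta
Pfkp: caaactgaaggggtcccagggcacagggaa

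Of the 75 member probes, 69 were well above background in Cy5 or in Cy3 on all 3 arrays and were tested, and each of the 40 genes kept at least 1 tested probe. Bright glycolytic transcripts met the upper limit of the scanner. Of these, 15 tested probes were saturated in a channel on at least 1 array, 3 of them in both channels on all arrays, against 2.46% of all tested probes saturated anywhere. In all, 8 glycolytic enzymes (Aldoa, Gapdh, Pgk1, Pgam1, Pgam2, Eno3, Ldha and Ldhb) had no probe free of saturation, and 11 of the 19 enzymes could be read below it. The ceiling shows in the values: the saturated probes of Gpi1 and Aldoa gave the same log2 ratios on replicate 1, -0.33 and -0.33, which are set by the scanner limit and the normalization. Gpi1 also had a dim unsaturated probe, which read 0.14, 0.18 and 0.20. Genes are therefore described by their brightest unsaturated probe, which 32 of the 40 genes had. Ratios of dim probes are drawn toward 0, because 50 intensity units were added to every spot before the ratio was taken.

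**Figure D1:**
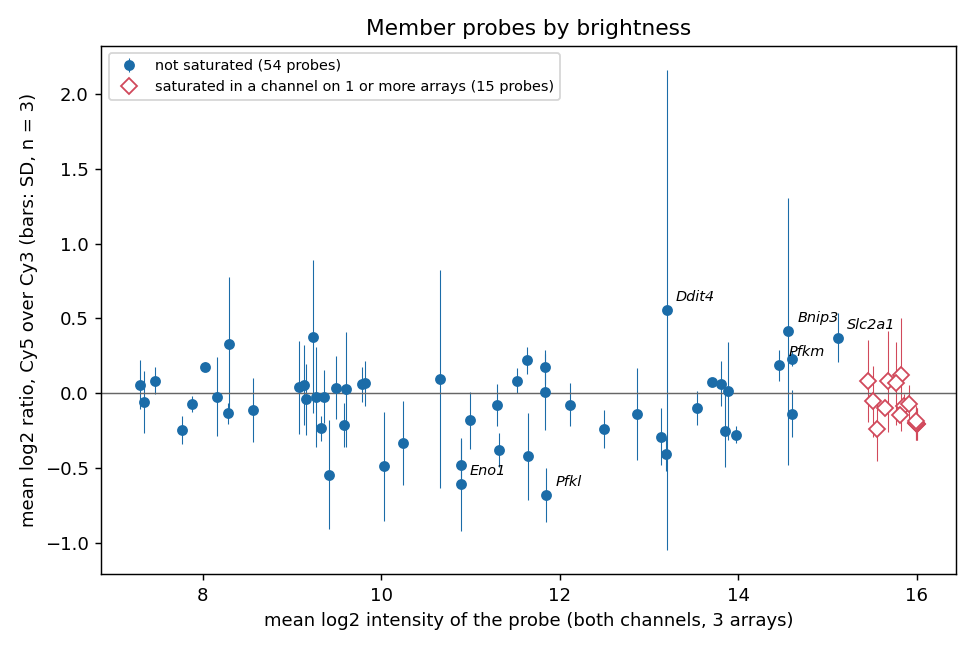
Each point is 1 tested member probe, with its mean log2 intensity on the horizontal axis and its mean log2 ratio of Cy5 over Cy3 (bars: SD, n = 3 arrays) on the vertical axis. The 15 saturated probes (open diamonds) sit at the right edge with mean ratios from -0.24 to 0.12. Pfkl (-0.68) and Eno1 (-0.61) lie in the middle of the intensity range, and Ddit4 (0.56) has the longest bar.

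No member probe passed an adjusted p of 0.05 in the limma fit over all 28328 tested probes, in which 395 probes were higher (1.39%) and 1 was lower (0.00353%). At an unadjusted p under 0.05, 1 member probe was higher (9.07% of all probes were) and 10 were lower (4.26% of all). The methods' t-test also left 0 member probes after adjustment, with 3 higher and 8 lower before it (5.4% and 3.89% of all probes), and it left 0 of all probes. Pfkl stood near the threshold in the limma fit (adjusted p = 0.0555). It was called lower with median centring (log2 ratio -0.74, adjusted p = 0.0488), with array weights (-0.72, adjusted p = 0.0241) and without replicate 3 (-0.78, adjusted p = 0.00229). The other settings did not call Pfkl. Of all 28328 probes, 2 were called lower with median centring and 11 with array weights. The fit without replicate 3 also called 1 Hk1 probe lower (-0.64) and 1 Pfkp probe higher (0.52), where 5.48% of all probes were called higher and 0.882% lower. Since the members were chosen on this contrast, nothing is read from these counts.

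By sign alone, 11 of the 32 genes were lower on 3 of 3 arrays and 7 were higher on 3 of 3, where 15.5% and 21.8% of 18800 genes read in the same way were. The median log2 ratio of the 32 genes was -0.03, and that of all genes was 0.03. The glycolytic enzymes lay lower, with a median of -0.24, and 7 of 11 were lower on every array. Structural and mesenchymal marker lists lay below 0 as well by their unsaturated probes: 5 of 5 cardiomyocyte markers (median -0.13, 1 lower on every array), 4 of 4 smooth muscle markers (-0.10, 3 on every array) and 4 of 5 fibroblast and mesenchyme markers (-0.16, 2 on every array). Read in the same way, the medians of the erythroid (-0.237) and liver (-0.478) lists were also below 0. Those of the endothelial (0.015), epicardial (0.008), skeletal muscle (0.031) and proliferation (0.227) lists were above it. The part of any of these lists in the enzyme values was not tested. The hypoxia targets had a median of 0.17. Over all 40 genes with saturated probes included, the median was -0.08.

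**Figure D2:**
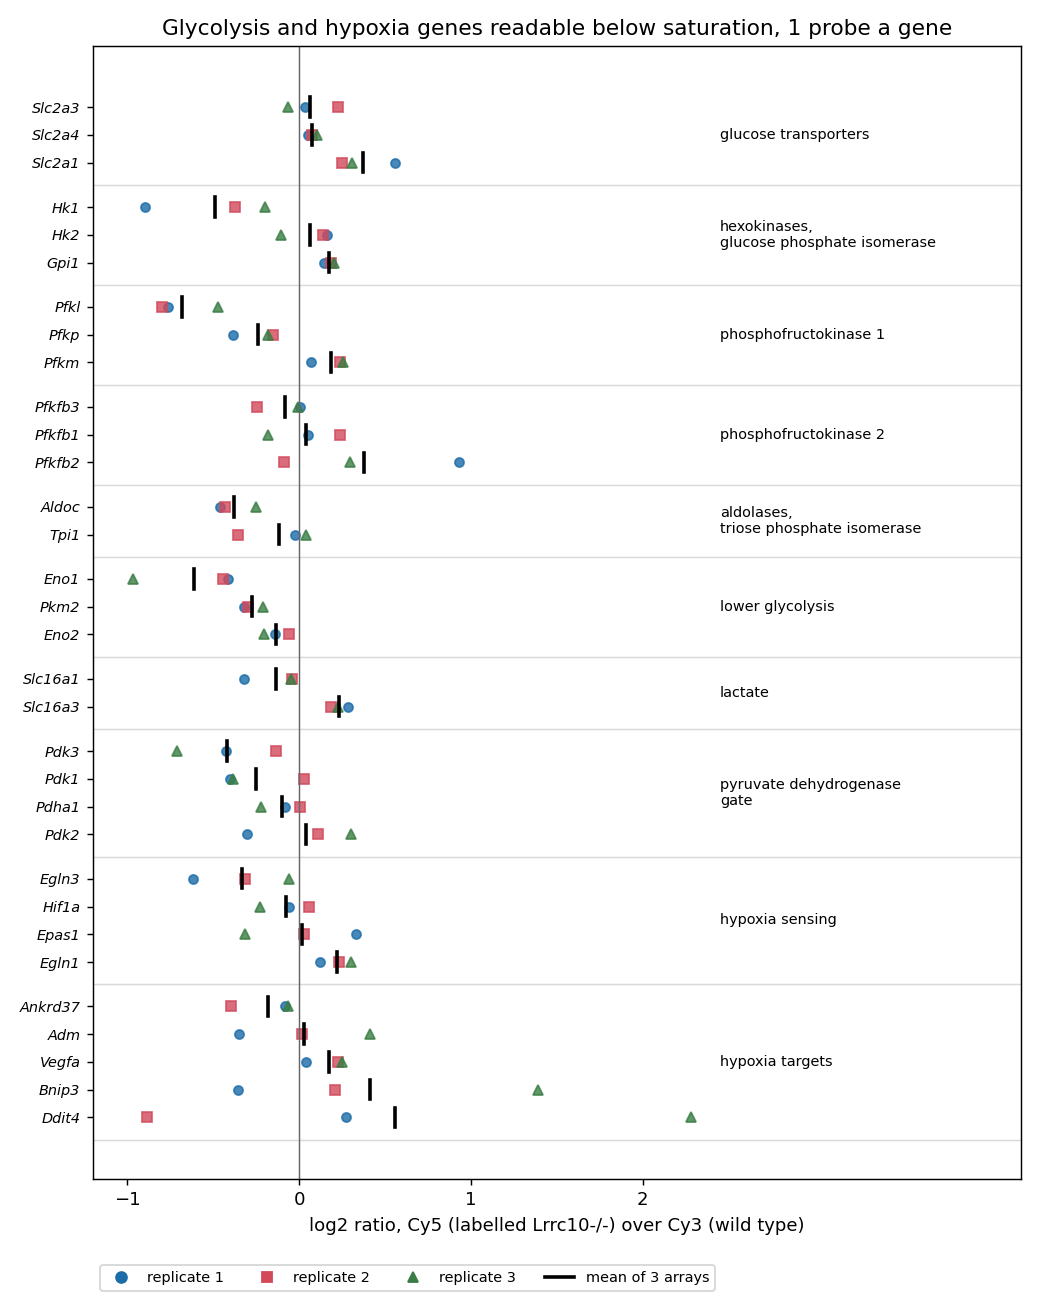
Log2 ratio of Cy5 over Cy3 (horizontal axis) of the 32 members with an unsaturated probe, grouped by role, with 1 symbol per array and a black bar at the mean of 3 arrays. Pfkl, Eno1, Aldoc, Pkm2 and Hk1 lie to the left of 0 on all arrays, and Ddit4 and Bnip3 spread most widely, with replicate 3 far to the right.

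Among the phosphofructokinases, the liver subunit Pfkl was lower, with log2 ratios of -0.76, -0.80 and -0.47 on replicates 1, 2 and 3 (mean -0.68 ± 0.18, n = 3), a 1.60-fold difference. Its deposited processed signals were 4696, 2815 and 4490 in Cy5 against 6634, 4371 and 6080 in Cy3. Each Cy5 signal of Pfkl was below the Cy3 signal of its own array, though the Cy5 signals of replicates 1 and 3 exceeded the Cy3 signal of replicate 2, and signals were not scaled between arrays.
The muscle subunit Pfkm, the main subunit of striated muscle, read 0.07, 0.24 and 0.25 (mean 0.19 ± 0.10). All 3 Pfkm values were above 0 and small, and with the deposited processed signals the mean was -0.02, so Pfkm has no settled direction.
The platelet subunit Pfkp was read by 3 tested probes. The brightest gave -0.38, -0.15 and -0.18 (mean -0.24 ± 0.13), a second gave 0.01, 0.14 and -0.22, and the third gave 0.50, 0.53 and -0.74. The Pfkp probes therefore disagreed in sign, and the third swung by over 1 log2 unit between arrays. It was listed as Pfkp in only some of the files and under a transcript accession in the rest.
Within arrays, Pfkl minus Pfkm was -0.83, -1.04 and -0.73 (mean -0.87 ± 0.16), and Pfkl minus the brightest Pfkp probe was -0.38, -0.65 and -0.29 (mean -0.44 ± 0.18). Pfkl was thus the lowest of the isoforms by these probes on every array, except that the third Pfkp probe read lower than Pfkl on replicate 3. This order is a description, since the fall of Pfkl chose it, and with processed signals the difference from Pfkm shrank to -0.51.

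**Figure D3:**
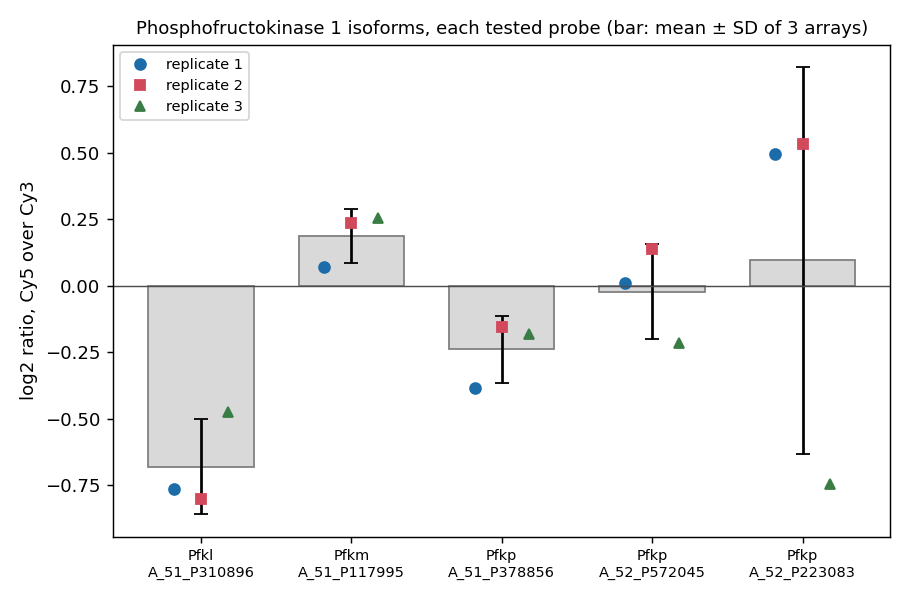
Log2 ratio of Cy5 over Cy3 (vertical axis) of the 5 tested probes of Pfkl, Pfkm and Pfkp, with bars at the mean, error bars for the SD of 3 arrays and 1 symbol per array. Only the Pfkl bar (-0.68) and the brightest Pfkp bar (-0.24) are below 0 on all arrays, and the last Pfkp probe runs from -0.74 to 0.53.

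The 6-phosphofructo-2-kinases set the level of fructose 2,6-bisphosphate, the strongest activator of phosphofructokinase 1. Pfkfb2, the heart isoform, read 0.93, -0.09 and 0.29 on its brightest probe (mean 0.38 ± 0.51), so its sign was not the same on all arrays. Its other tested probes averaged 0.06 and 0.33. Pfkfb3, the isoform known for induction by low oxygen, read 0.01, -0.24 and -0.01 (mean -0.08 ± 0.14). Pfkfb1, the liver isoform, had a mean of 0.04 ± 0.21, so no kinase of this family kept one sign on all arrays by its brightest probe.

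At the entry of glucose, the ubiquitous transporter Slc2a1 was higher, at 0.56, 0.25 and 0.31 (mean 0.37 ± 0.16). All arrays placed it above 0, and the mean dropped to 0.13 with processed signals. Slc2a3, the neuronal transporter, read 0.03, 0.23 and -0.07 (mean 0.06 ± 0.15). Slc2a4, the insulin-responsive transporter of muscle, was printed at 10 spots per array and read 0.05, 0.08 and 0.10. The SD among its spots within an array was 0.31, 0.21 and 0.11, larger than the SD of 0.03 between arrays, so the closeness of its 3 values is finer than the spots themselves resolve.
Hexokinase traps glucose in the cell. Hk1, the form of most adult tissues and of the fetal heart, was lower on its brightest unsaturated probe (-0.90, -0.38 and -0.20; mean -0.49 ± 0.36) and on 2 dimmer ones (means -0.22 and -0.23), while the dimmest tested probe averaged 0.08. These 4 probes differed by 0.57, the widest disagreement among the 13 genes with several unsaturated probes. Its brightest probe of all, saturated in Cy3 on 1 array, read -0.21, -0.04 and -0.47. Hk2, the insulin-regulated form of muscle, read 0.16, 0.14 and -0.11 (mean 0.06 ± 0.15), and its sign was not the same on all arrays.

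Below phosphofructokinase, Aldoc, the brain aldolase, was lower on all arrays (-0.46, -0.43 and -0.25; mean -0.38 ± 0.11), and its dimmer probe averaged -0.07. Tpi1, triose phosphate isomerase, read -0.03, -0.36 and 0.04 on its unsaturated probe (mean -0.11 ± 0.21), which only some of the files name as Tpi1. Aldoa, the muscle aldolase, was saturated in Cy5 on all arrays by both its probes and could not be read.
Eno1, the enolase of embryonic tissues, had the lowest mean of the lower pathway, at -0.42, -0.45 and -0.97 (mean -0.61 ± 0.31), a 1.53-fold difference. Replicate 3 was far below the other arrays, and without it the mean was -0.43. Eno1 has near-identical copies elsewhere in the genome, so its value is uncertain as a reading of 1 locus. Eno2, the neuronal enolase, was lower by less, at -0.14, -0.06 and -0.20 on its brighter probe. Its dimmer probe read -0.36, -0.18 and -0.20 (mean -0.25 ± 0.10). Eno3, the muscle enolase, was saturated.
Pkm2, the embryonic and muscle pyruvate kinase gene (now Pkm), read -0.32, -0.30 and -0.21 on its brightest probe (mean -0.28 ± 0.06) and -0.41, -0.52 and -0.29 on the next (mean -0.40 ± 0.11). Both bright probes were below 0 on all arrays, while the dimmest averaged -0.02 ± 0.26.
Gapdh was saturated in Cy5 on 1 array and read 0.38, -0.004 and -0.14 on the probe named Gapdh in all files (mean 0.08 ± 0.27), so its sign was not the same on all arrays. Its other probe had a mean of 0.08, which was -0.26 with processed signals and -0.02 with median centring. Pgk1 and Pgam2 also had values on both sides of 0. Pgam1, saturated in Cy5 on 2 arrays, read -0.05, -0.14 and -0.10, where the ceiling limits the reading.

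At the lactate end, both Ldha probes and the Ldhb probe, the muscle and heart subunits of lactate dehydrogenase, were saturated on at least 1 array. The brighter Ldha probe was saturated in both channels on all arrays. The carriers could be read. Slc16a1, which brings lactate into heart muscle, was lower on 3 of 3 arrays by each of its 3 probes, with means of -0.14 ± 0.16, -0.29 ± 0.19 and -0.54 ± 0.36 from the brightest to the dimmest. Slc16a3, the exporter of glycolytic tissues and a hypoxia target, read 0.29, 0.18 and 0.23 (mean 0.23 ± 0.05). Its 3 values lay close together above 0, yet the mean was -0.05 with processed signals, so its sign depends on that choice.
Pyruvate dehydrogenase admits pyruvate to the mitochondrion, and its kinases close that gate. Pdk3 was lower by both probes, at -0.43, -0.13 and -0.71 (mean -0.42 ± 0.29) and at -0.52, -0.29 and -0.62 (mean -0.48 ± 0.17). Pdk1, the kinase known as a target of Hif1a, gave -0.25 ± 0.24 on one probe and 0.01 ± 0.26 on the other. Pdk2, abundant in adult heart, read -0.30, 0.11 and 0.30, and Pdha1, the catalytic subunit, averaged -0.10 ± 0.11. Pdk3 was thus the only one of these 4 genes to lie below 0 on every array.

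Oxygen sensing showed small values. Egln3, a prolyl hydroxylase of muscle that low oxygen itself induces, was lower (-0.62, -0.31 and -0.06; mean -0.33 ± 0.28), and Egln1, the main oxygen sensor, was higher (0.12, 0.23 and 0.30; mean 0.22 ± 0.09). By these probes the pair pointed in opposite directions on all arrays. A dimmer Egln1 probe read 0.05, 0.18 and -0.06 (mean 0.06 ± 0.12), so on replicate 3 it lay below 0 as Egln3 did. Hif1a, whose product is regulated mainly at the protein level, averaged -0.08 ± 0.15. Epas1, the endothelial factor, read 0.33, 0.03 and -0.32 (mean 0.02 ± 0.33), one array on each side of 0 and one near it.

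Of the 32 readable members, the hypoxia targets Ddit4 and Bnip3 varied most between arrays. Ddit4, an inhibitor of mTORC1 that low oxygen, starvation and glucocorticoids induce, read 0.27, -0.89 and 2.28 on replicates 1, 2 and 3 (mean 0.56 ± 1.60). The processed Cy5 signals were 5626, 11691 and 26676, and those of Cy3 were 4158, 21520 and 5417. Ddit4 was thus higher in Cy5 on replicate 3, higher in Cy3 on replicate 2 and slightly higher in Cy5 on replicate 1, and its highest Cy3 signal came from replicate 2. The SD of Ddit4 over the arrays was greater than that of 99.9% of 18800 genes, whose median SD was 0.21.
Bnip3, a mitophagy receptor, read -0.36, 0.21 and 1.39 (mean 0.41 ± 0.89), with processed Cy5 signals of 21462, 18608 and 61462 beside Cy3 signals of 25954, 16498 and 25895. The single high value was the Cy5 pool of replicate 3, and its SD exceeded that of 99.3% of genes.
Adm, the vasodilator adrenomedullin, read -0.35, 0.02 and 0.42 (mean 0.03 ± 0.38), with processed Cy5 signals of 472, 879 and 1571 beside Cy3 signals of 543, 791 and 1017. It was also highest on replicate 3.
Vegfa, the endothelial growth factor, read 0.04, 0.23 and 0.25 on its brightest probe (mean 0.17 ± 0.11) and 0.01, 0.08 and 0.17 on a probe printed at 10 spots (mean 0.08 ± 0.08), while its other tested probes averaged -0.04 and 0.06. Ankrd37, an ankyrin repeat gene known for its strong induction by Hif1a, read -0.08, -0.40 and -0.06 (mean -0.18 ± 0.19). Ankrd37 was below 0 on replicate 3, where Ddit4 and Bnip3 were far above it, so the targets did not move as 1 block on that array.
Without replicate 3, the means of Ddit4, Bnip3 and Adm were -0.31, -0.07 and -0.17, all of the other sign, and the median of the 5 targets went from 0.17 to -0.17. Replicate 3 alone thus set the direction of these 3 genes and of the group.

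**Figure D4:**
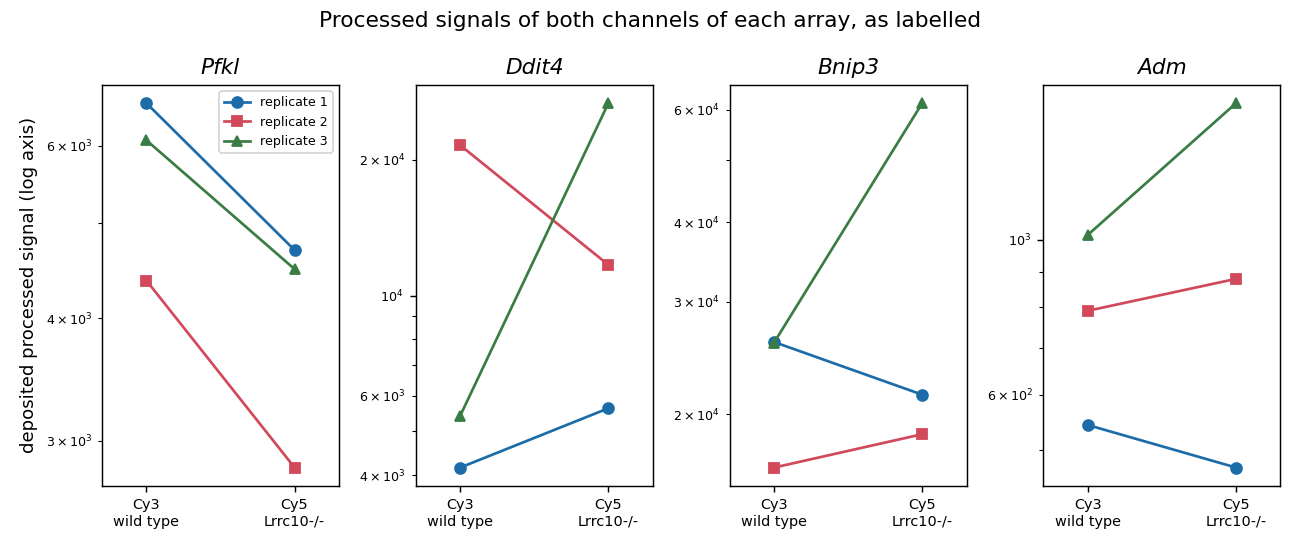
Deposited processed signals (vertical log axes, one per gene) of Pfkl, Ddit4, Bnip3 and Adm in the Cy3 and the Cy5 channel, with a line joining the channels of each array. The 3 Pfkl lines fall together, while the Ddit4 lines run from 5417 to 26676 on replicate 3 and from 21520 to 11691 on replicate 2.

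Set beside the enzymes on the same array, the median hypoxia target exceeded the median of the 11 readable enzymes by 0.24, 0.31 and 0.61 log2 units on replicates 1, 2 and 3 (mean 0.39 ± 0.20). With saturated probes included the differences were 0.18, 0.14 and 0.58 (mean 0.30 ± 0.24). The difference was above 0 on all arrays, with replicate 3 the highest. The median target was -0.08, 0.02 and 0.42 and the median enzyme -0.32, -0.30 and -0.20, so on replicates 1 and 2 the difference came from the lower enzymes, with targets near 0.

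**Figure D5:**
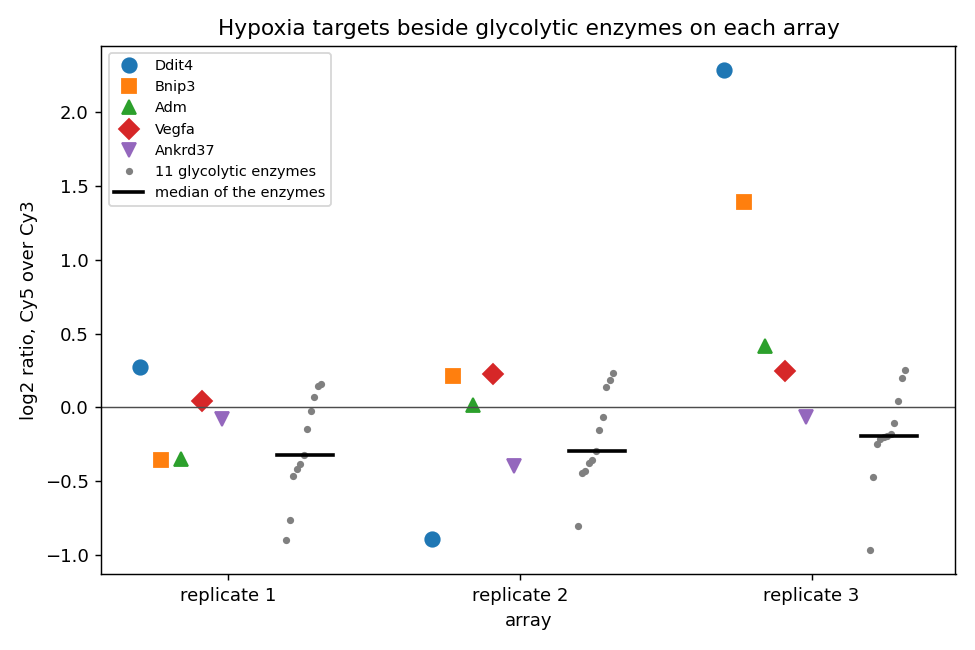
Log2 ratio of Cy5 over Cy3 (vertical axis) on each array for the 5 hypoxia targets (coloured symbols) and the 11 glycolytic enzymes with an unsaturated probe (grey points; black bar, their median). The enzyme medians stay at -0.32, -0.30 and -0.20, while Ddit4 and Bnip3 reach 2.28 and 1.39 on replicate 3 only.

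The upstream sequences were searched for the core letters of the hypoxia response element, ACGTG and GCGTG, on both strands. RefSeq promoters (GRCm38.p6) of 300 bases, 250 before and 50 after each start, were found for 37 of the 40 members. At least 1 match lay in a promoter of 33 of these 37 genes (89.2%) and of 46.7% of all 27025 genes in the table. By promoter, 5 of 6 of the hypoxia targets (83.3%), 22 of 30 of the glycolytic enzymes (73.3%) and 43.8% of all 32851 promoters held a match. Member promoters were also richer in G and C, with a median of 61.0% against 52.7% over all promoters, and both motifs contain mostly these letters. Inside CACGTG the letters match on both strands and are counted on each. A match describes letters, not a bound site.
The stretch of 250 bases before the start is printed for Pfkl, which differed on every array, for Ddit4, Bnip3 and Adm, which were above 0 on replicate 3, and for Ankrd37, which was below 0 there. Capitals mark the matches on either strand, and each line runs 5′ to 3′ in the direction of the gene. The Pfkl stretch (minus strand, chr10:78009808-78010057) holds 1 match, that of Ddit4 (minus strand, chr10:59951771-59952020) 2, that of Bnip3 (minus strand, chr7:138909507-138909756) 5, that of Adm (plus strand, chr7:110627407-110627656) 2 and that of Ankrd37 (minus strand, chr8:45999851-46000100) 4.
Pfkl: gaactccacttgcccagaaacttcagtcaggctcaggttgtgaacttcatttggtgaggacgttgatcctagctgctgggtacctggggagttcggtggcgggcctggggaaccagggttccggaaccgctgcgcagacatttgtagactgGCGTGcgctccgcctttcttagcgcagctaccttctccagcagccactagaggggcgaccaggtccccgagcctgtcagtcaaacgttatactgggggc
Ddit4: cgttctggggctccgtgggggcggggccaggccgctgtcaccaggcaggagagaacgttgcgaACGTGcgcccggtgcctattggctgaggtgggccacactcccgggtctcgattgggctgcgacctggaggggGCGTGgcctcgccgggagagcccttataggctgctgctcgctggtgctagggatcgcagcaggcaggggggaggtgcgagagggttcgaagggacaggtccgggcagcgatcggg
Bnip3: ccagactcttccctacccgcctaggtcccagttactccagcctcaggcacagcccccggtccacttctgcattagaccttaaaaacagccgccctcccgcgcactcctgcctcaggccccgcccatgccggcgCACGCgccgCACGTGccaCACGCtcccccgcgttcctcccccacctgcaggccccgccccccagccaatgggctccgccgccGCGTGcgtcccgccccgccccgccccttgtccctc
Adm: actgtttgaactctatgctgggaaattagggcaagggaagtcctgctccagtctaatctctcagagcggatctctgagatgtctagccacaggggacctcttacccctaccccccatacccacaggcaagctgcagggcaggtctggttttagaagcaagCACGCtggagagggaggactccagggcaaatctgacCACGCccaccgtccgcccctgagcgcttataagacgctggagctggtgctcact
Ankrd37: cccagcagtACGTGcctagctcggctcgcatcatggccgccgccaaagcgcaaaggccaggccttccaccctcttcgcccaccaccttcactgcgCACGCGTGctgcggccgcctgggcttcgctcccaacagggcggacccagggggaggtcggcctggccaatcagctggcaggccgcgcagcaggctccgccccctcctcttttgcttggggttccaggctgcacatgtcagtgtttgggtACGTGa
Vegfa, whose stretch is not printed, was also above 0 on replicate 3 (0.25 on its brightest probe). It held 2 matches in 1 promoter and 0 in the other. Whether the number of matches bears on the ratios was not tested. Bnip3 is the only one of the 5 printed genes whose matches overlap in CACGTG, which is also the letters of an E-box.

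Other genes of the same pathways, 60 names written down with the earlier results known, were looked up in the same fit. Of their 91 tested probes, 0 were called in either direction by limma, 5 were higher and 9 lower at an unadjusted p under 0.05 (9.07% and 4.26% of all probes), and the methods' t-test called 0. Without replicate 3, 3 were called higher and 2 lower (5.48% and 0.882% of all probes). By brightest probe, 55 distinct probes could be read, with Pgm1 and Pgm2 leading to the same one, and Fbp2, Pdp2, Car12 and Epo had no tested probe. Their median log2 ratio was 0.03, against 0.03 for all genes, and 23 lay below 0 and 32 above.
The closest relatives of the members are given by value. Pfkfb4, the fourth kinase of that family and a hypoxia target, read 0.51, 0.27 and -0.13. Hif3a, the third alpha subunit of the factors, read 1.24, 0.75 and -0.22 (mean 0.59 ± 0.74), the highest mean of these 55 probes. Bnip3l, the paralogue of Bnip3, read 0.04, -0.10 and 0.38, and was highest on replicate 3 as Bnip3 was, at a smaller size. Car9, a strongly hypoxia-dependent carbonic anhydrase, read -0.02, -0.10 and 0.20. Pdk4, the fasting-induced kinase, read 0.02, 0.20 and -0.46, and Egln2 read 0.11, 0.13 and 0.40. None of these 6 genes passed the adjusted threshold.

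Markers of other cells were read beside the members, and their part in the values was not tested. The tissue label was borne out by 10 of 10 cardiomyocyte markers, all well above background in both channels on all arrays, though 7 were saturated. In bulk tissue, fewer cells of a type and less RNA per cell cannot be told apart. Liver markers differed between arrays: the summed processed signal of 6 listed genes with a probe was 25518, 3152 and 4358 in Cy5 and 15231, 29192 and 3173 in Cy3, and Afp read 0.82, -5.15 and 0.77. Alb1 and Ahsg had the same signs as Afp on each array, while Trf read -0.18, -0.51 and -0.10. Pfkl, the liver subunit, read -0.76, -0.80 and -0.47 on these arrays, and the part of liver RNA in it was not tested. Erythroid markers, of cells that also use Pfkl, were lower on 3 of 3 arrays for 4 of the 8 tested genes and higher on 3 of 3 for 1. The lower ones included the saturated globins Hbb-b1 and Hba-a1, whose ratios the ceiling limits. By unsaturated probes, 2 of 7 genes were lower on 3 of 3 arrays and 1 was higher. Summed over this list, with 2 saturated genes, the Cy5 signals came to 167691, 86265 and 160755 and the Cy3 signals to 237055, 108155 and 211332. Alas2, the erythroid enzyme of heme synthesis, read -0.58, -0.51 and -0.29, whereas embryonic globin Hbb-bh1 read 0.05, 0.05 and 0.15. Whether red cells had a part in the Pfkl ratio was not tested. On replicate 3, where Ddit4 and Bnip3 were high, the median of the 7 tested skeletal muscle markers was 0.13, with Ckm at 0.83 and Tnni2 at -0.47, against medians of 0.03 and -0.12 on replicates 1 and 2. On that array the share of gene spots well above background was lowest, 63.9% in Cy5 and 69.3% in Cy3 against 82.4% to 93.2% on the other arrays. Their part in the high values was not tested.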

How the data were processed

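Hearts were compared on 3 arrays, each 1 replicate of 2 pooled hearts labelled Lrrc10-/- (Cy5) against 2 pooled hearts labelled wild type (Cy3). The deposited scanner files hold spot intensities and, per the file headers, came from Agilent Feature Extraction 9.1.3.1 (replicate 1, local background) and 10.7.3.1 (replicates 2 and 3), while the submitters' processing notes name version 9.5. The processed intensity of each channel was background-subtracted and dye-normalized by the authors' software. The deposited log10 ratios are processed Cy5 over Cy3, and the series table equalled them (largest difference 0).

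The R package limma (3.58.1, R 4.3.3) gave the log2 ratios. Mean signals were corrected with normexp on the median local background (offset 50) and normalized by loess within arrays, with control spots at weight 0. Non-uniform spots were left out and spots of a probe averaged. A probe was tested if the software flagged it well above background in Cy5, or in Cy3, on all 3 arrays. Ratios were tested against 0 (lmFit, eBayes, two-sided, Benjamini-Hochberg over 28328 probes, threshold 0.05). A channel counted as saturated where flagged or at 99% of the scanner limit, and a probe at the limit in Cy5 and Cy3 alike gets no fold. The methods call the arrays independent biological replicates.

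Members were matched by gene name, ignoring case, and 72 of the 75 probes carry the name in all 3 files. A gene is represented by its brightest tested probe or, as said, its brightest unsaturated one. Role groups, marker lists and other pathway genes were written from general knowledge, and members and lists were chosen with earlier results of these data known. All 40 members were accounted for. Values per array are given for Lrrc10, the phosphofructokinases, the hypoxia targets, the highest and lowest member of each role group, and members called or with probes differing by over 0.5 in log2 ratio, with others by range or mean. Positions of probes come from the files (mm9), and promoters are RefSeq's (GRCm38.p6). The fit was tested on simulated data. Alternatives covered the deposited processed signals and series table, background correction, centring, scaling, filters, array weights, the methods' t-test, a trend with intensity, software version as a block, leaving out each array, the median over probes and unsaturated probes, the last chosen after seeing the data.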

Additional observations from a re-analysis of the deposited data

How the results depend on the processing

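Each summary value given above was compared with its value under each alternative. Processed signals and the series table hold the same ratios but were counted separately. Of these comparisons, 257 were classed as unchanged, 69 as moved and 3 as losing a call. Unchanged values kept their side of the threshold or moved by less than the spread between arrays. Counts of calls were classed as well, and 395 going to 266 with median centring counted as unchanged. The cause was not tested except where the alternative itself removes arrays or probes. Calls over all probes were 395 higher and 1 lower. The count higher went to 0 with the methods' t-test, scaling between arrays, the series table and processed signals, to 1 without background correction and with software version as a block, and to 145 without the filter on dim probes. The count lower went to 0 under those 7 settings, to 11 with array weights, to 3 with a trend by intensity, and to 2 with median centring and with the minimum signal of 20 in each channel. Leaving out 1 array gave 1 to 1540 higher and 0 to 248 lower, the top of both without replicate 3. Member probes called lower went from 0 to 1 with median centring and with array weights (Pfkl). Leaving out 1 array gave 0 to 1 member probe higher and 0 to 2 lower, and 0 to 3 and 0 to 2 of the other pathway probes. Lrrc10 (4.41) lost its call with scaling (4.62) and with the series table and processed signals (5.21), and ranged from 4.22 to 4.62 without 1 array.

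The median of all members (-0.083) was -0.163 with processed signals and the series table, -0.168 with median centring, -0.103 with scaling, -0.061 with the median over probes and -0.030 with unsaturated probes, and ran from -0.123 to -0.073 without 1 array. With processed signals and the series table, the medians were -0.314 for hexokinases and isomerase (main -0.207), -0.119 for the 6-phosphofructo-2-kinases (0.037), -0.426 for aldolases and triose isomerase (-0.206), -0.257 for lower glycolysis (-0.117) and -0.187 for hypoxia sensing (-0.030), and the difference of hypoxia targets and enzymes was 0.550 (0.30). Pfkm was then -0.015 (0.186) and Pfkl minus Pfkm -0.508 (-0.866). Median centring gave -0.310 for hexokinases and isomerase and -0.191 for lower glycolysis, which was -0.132 without background correction. The median over probes gave -0.015 for hexokinases and isomerase, -0.023 for phosphofructokinase 1 and for Pfkp (-0.239) and -0.657 for Pfkl minus Pfkp (-0.440). Unsaturated probes gave 0.064 for hexokinases and isomerase, -0.277 for lower glycolysis, 0.047 for lactate (-0.162) and 0.131 for the muscle isoforms Pfkm, Pgam2, Eno3 and Slc2a4 (0.010), which leave out saturated genes by construction.

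Without 1 array, the medians ran from -0.001 to 0.147 for the 6-phosphofructo-2-kinases, -0.136 to -0.105 for lower glycolysis, -0.114 to 0.089 for hypoxia sensing and -0.168 to 0.237 for hypoxia targets. Pfkl ran from -0.782 to -0.619, and Pfkl minus Pfkm from -0.934 to -0.781. Processed signals moved the median of all genes from 0.028 to -0.015. No paired analysis was possible because there is 1 group, and each ratio already pairs the channels of 1 array. The low count of arrays and saturation of the brightest enzymes limit what these values resolve.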

Other observations

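Glycogen feeds glycolysis in the fetal heart, and its genes were among the other pathway genes read in the same fit. Gys1, the muscle glycogen synthase, read -0.49, -0.20 and -0.60 on replicates 1, 2 and 3 (mean -0.43 ± 0.20, n = 3). Pygb, the brain and fetal form of glycogen phosphorylase, read -0.58, -0.51 and -0.28 (mean -0.46 ± 0.16). Both lay below 0 on all arrays. Pygl, the liver form, averaged -0.23 ± 0.25 and was also below 0 on all arrays, while Pygm, the muscle form, averaged 0.05 ± 0.05. Gbe1, the branching enzyme, averaged -0.07 ± 0.30, Ugp2, which makes UDP-glucose, -0.14 ± 0.38, and Phka1, a subunit of phosphorylase kinase, 0.39 ± 0.51. No probe of these 7 genes passed the adjusted threshold in the limma fit.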
